A study of Mus musculus with 64 samples.

Results

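The clustered histone genes were followed here through all 64 libraries. The members were taken by name: every transcript whose gene symbol begins Hist1h, Hist2h, Hist3h or Hist4h, which gave 76 transcripts of 70 symbols and 71 gene identifiers among 112714 transcripts of 46785 genes. By family there were 6 H1, 20 H2A, 25 H2B, 12 H3 and 13 H4 transcripts. By cluster there were 61 transcripts of the Hist1 group (chromosome 13), 11 of Hist2 (chromosome 3), 3 of Hist3 (chromosome 11) and 1 of Hist4 (chromosome 6) on mouse build GRCm38. Of the 76, 72 passed the filter of a mean of at least 0.1 FPKM (Cufflinks' length- and depth-scaled measure of abundance) in either tissue, as did 86331 of all transcripts. The 4 that did not were Hist1h1t, Hist1h2aa, Hist2h3b and 1 of the transcripts of Hist1h2br.

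RNA was sequenced from the nucleus accumbens (NAc) and the prefrontal cortex (PFCx) of adult male C57BL/6N mice aged 8 to 10 weeks, 2 h after 1 intraperitoneal injection. The drugs were the antipsychotics haloperidol (1 mg/kg) and risperidone (0.5 mg/kg), the psychostimulant methamphetamine (2 mg/kg), the antidepressants venlafaxine (16 mg/kg) and mianserin (20 mg/kg) and the anaesthetic ketamine (20 mg/kg), with 4 libraries per drug and tissue. Haloperidol and risperidone were dissolved in saline with a drop of hydrochloric acid, the other drugs in saline. Saline was given to 2 separately labelled sets, I and II, of 4 libraries each in each tissue. The drug groups carry no set in their labels. They were placed by how many transcripts had an FPKM above 0 in the NAc, which was 85287 to 87827 in saline I, haloperidol, risperidone and methamphetamine and 107099 to 110556 in saline II, mianserin, venlafaxine and ketamine. No such gap was seen in the PFCx, where the same groups had 108878 to 110852 and 108556 to 110620. These divisions are called sample sets I and II here. Where nothing in the labels says that libraries came from separate animals, a p-value measures only the spread between these libraries.

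Histone proteins package DNA: 2 copies each of H2A, H2B, H3 and H4 form the nucleosome core, and the linker histone H1 binds where DNA enters and leaves it. Most of the clustered genes are replication-dependent. They have no introns, their mRNA rises in S phase, and it ends not in a poly(A) tail but in a conserved stem-loop bound by SLBP, which is cut free with the help of the U7 snRNP. In a tissue of mostly non-dividing cells such as adult brain little new histone is needed for replication, and several clustered genes are known to give some polyadenylated mRNA as well. The libraries were made after removal of ribosomal RNA rather than by poly(A) selection, so that both kinds of mRNA could be captured.

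The histone stem-loop was searched by its consensus, known by that name, on the sense strand of the GENCODE vM21 transcripts, since the transcript itself carries it. It was found in 145 of 141767 transcripts (0.102%) and in 45 of the 76 members (59.2%). All 33 members outside the H4 family that held it had the stem GGCTCT, whereas the 12 H4 members had GGCCCT (10) or GGTCCT (2). The sequences below are those of the members whose values are described most closely, in transcript sense, 5′ to 3′. Both arms of the stem are in capitals, with 4 loop bases between them and 5 bases on each side. Each lies in the 3′ untranslated part of a transcript with 1 exon.
Hist1h4d, chr13:23581945-23581970, plus strand: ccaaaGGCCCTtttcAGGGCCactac
Hist1h4c, chr13:23698084-23698109, minus strand: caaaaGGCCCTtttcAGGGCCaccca
Hist1h4h, chr13:23531453-23531478, plus strand: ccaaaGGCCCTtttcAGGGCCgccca
Hist1h4j, chr13:21735432-21735457, plus strand: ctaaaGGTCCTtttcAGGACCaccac
Hist1h3d, chr13:23576239-23576264, plus strand: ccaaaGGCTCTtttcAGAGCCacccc
Hist1h3c, chr13:23745042-23745067, minus strand: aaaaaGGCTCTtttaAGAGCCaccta
Hist1h2ag, chr13:22042478-22042503, minus strand: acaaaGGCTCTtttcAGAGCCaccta
Hist3h2ba, chr11:58949344-58949369, plus strand: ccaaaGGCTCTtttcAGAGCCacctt
Hist3h2a, chr11:58955167-58955192, plus strand: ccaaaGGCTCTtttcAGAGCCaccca
Hist1h1e, chr13:23621777-23621802, minus strand: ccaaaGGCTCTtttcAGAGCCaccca
Hist1h1c, chr13:23739507-23739532, plus strand: caaaaGGCTCTtttcAGAGCCaccac
Hist1h1d, chr13:23555782-23555807, plus strand: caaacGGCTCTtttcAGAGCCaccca

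In 30 members the transcript model used for the FPKM ended within 100 bases of the stem-loop, in 14 it ran on further, and in 32 it held no stem-loop. Several of the last have only the length of a coding sequence, such as Hist1h2bl (381 bases), Hist1h3h (411) and Hist1h4k (312). A stem-loop missing from such a model need not be missing from the gene, so the count of members holding it may be too low. Hist1h4d, Hist1h4c and Hist1h1e are of the kind that ends at the stem-loop, with 25, 29 and 27 bases after it. Hist3h2a is of the other kind, since its model went on for 1643 bases. The members are also alike in sequence. A median of 34.5% of the 100-base windows of a member were found in another member gene, and 57 of 76 shared at least 10%. Reads of the closest copies could be divided between them by the quantification, so that values of a single H2A, H2B, H3 or H4 gene are less certain than sums. In the H4 family 10 of 13 transcripts shared over 10%, among them Hist1h4m (88.1%), Hist1h4k (64.3%), Hist1h4j (19%) and Hist1h4c (14%). The H1 transcripts shared less, with 0% for Hist1h1a, 5.07% for Hist1h1c, 0.792% for Hist1h1d and 24.7% for Hist1h1e. All these windows were taken from the GENCODE vM21 transcripts, which for some members are longer than the model used for the FPKM. Hist1h1d has 7425 bases there against 744, Hist1h1e 1930 against 748 and Hist1h4c 820 against 395. Shares within the shorter models were not worked out and may be higher. Hist1h4d and Hist3h2a shared 0%.

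The H4 genes gave the highest levels. Averaged over the 64 libraries, the 10 genes with the highest summed FPKM were Hist1h4d (52.7), Hist1h4c (33.6), Hist1h4h (26.2), Hist1h4f (19.7), Hist3h2ba (19.3), Hist1h1e (17.4), Hist1h4n (17.4), Hist1h4m (11.5), Hist1h2bg (9.73) and Hist1h1d (9.53). Of these, 6 encode H4, which made up a median of 50.8% of the members' summed FPKM in NAc saline libraries and 52.2% in PFCx saline libraries. The PFCx median lies between the saline sets, with 56.2 to 62.4% in saline I and 38.1 to 48.1% in saline II. In the NAc the sets overlapped, at 49.7 to 55.9% and 48 to 51.7%. Of the 70 genes, 53 had a mean of at least 1 FPKM and 8 of at least 10, 3 were under 0.1, and 0 were listed at 0 in every library.

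The bases behind the FPKM values, worked out from coverage and FPKM, were 1.52 to 3.26 gigabases per library with a median of 2.39. In saline I the tissues overlapped in depth (NAc 2.03 to 3.03, PFCx 1.52 to 2.78), whereas in saline II the NAc libraries, at 2.42 to 3.26, were all deeper than the PFCx libraries, at 1.61 to 2.39. Markers fixed for the tissues set them apart, since all 9 genes of medium spiny neurons (the projection neurons of the striatum and NAc) were higher in the NAc and all 7 of cortical excitatory neurons were lower. The summed FPKM of the 9 was 628 to 839 in NAc saline libraries and 33.3 to 105 in PFCx saline libraries, where 105 was PFCx saline II replicate 4 and the other 7 were at 33.3 to 51.9. The 24 genes of dividing cells were low beside the histones, with a summed FPKM of 26.4 to 33.2 in NAc saline I and 35.6 to 37.1 in PFCx saline I. In saline II the tissues overlapped, at 32.7 to 34.8 in NAc and 32.7 to 38.6 in PFCx. In whole tissue, fewer cells of a type and less RNA per cell cannot be told apart.

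The histone transcripts differed between libraries that had received the same saline. In the NAc the summed FPKM of the 76 transcripts was 556, 478, 531 and 613 in saline I and 266, 266, 289 and 325 in saline II, means of 544 ± 56.2 and 286 ± 28 (SD, n = 4 each). In the PFCx it was 366, 494, 392 and 435 in saline I and 170, 195, 162 and 124 in saline II, means of 422 ± 55.8 and 163 ± 29.7 (SD, n = 4 each). The sets did not overlap in either tissue, and saline I was 1.9-fold higher in NAc and 2.59-fold higher in PFCx. All families had higher sums in saline I. H4 was higher 2-fold in NAc and 3.62-fold in PFCx, with H3 at 2.17-fold and 2.83-fold, H1 at 2.03-fold and 2.22-fold, H2A at 1.64-fold and 1.85-fold and H2B at 1.69-fold and 1.48-fold. The drug groups went with their sample set. Over all 16 libraries of a set and tissue, sums were 384 to 626 in set I and 194 to 399 in set II of the NAc, and 351 to 496 against 124 to 317 in the PFCx, where the sets did not overlap.

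**Figure D1:**
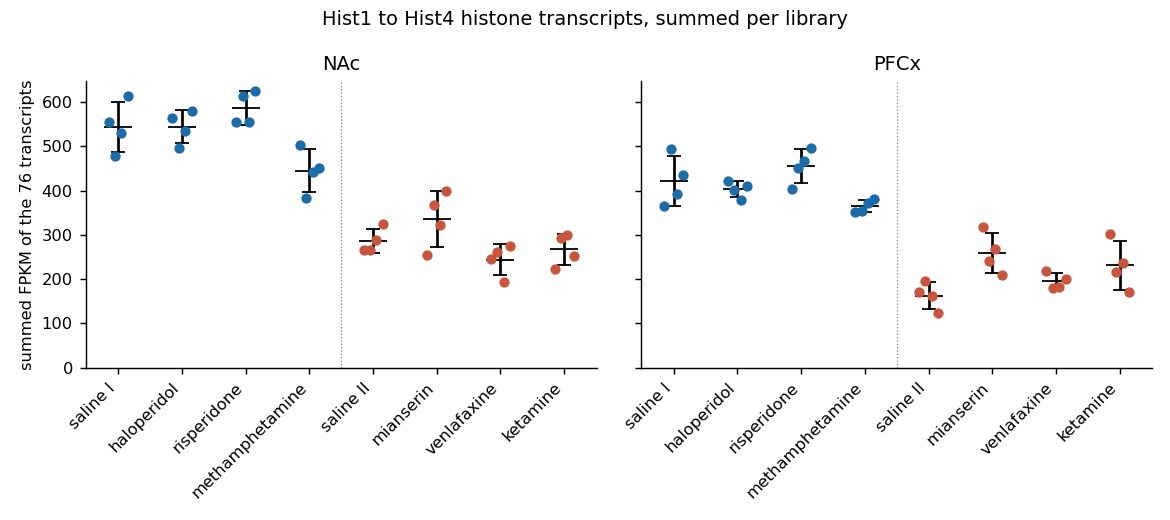
Summed FPKM of the 76 histone transcripts in each library of the NAc (left) and the PFCx (right), by group. Points are libraries, horizontal bars are means and error bars are SD (n = 4); sample set I is blue, sample set II is red. In the PFCx every set I library, at 351 or more, lies above every set II library, at 317 or less.

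Tested by transcript, with limma on log2(FPKM + 1) and Benjamini-Hochberg adjustment over all 86331 transcripts, 28 of 72 members fell in NAc saline II against saline I and 0 rose, where 1.15% of all transcripts were called, 0.593% lower and 0.554% higher. The members' median difference was -0.69 on that log2 scale against 0.05 over all transcripts. By family, 9 of 13 H4, 5 of 11 H3, 8 of 24 H2B, 4 of 19 H2A and 2 of 5 H1 transcripts were called. In the PFCx 27 of 72 fell and 0 rose, where 2.56% of all transcripts were called, 1.31% lower and 1.25% higher, with medians of -0.55 and 0. There the called members were 12 of 13 H4, 5 of 11 H3, 3 of 24 H2B, 3 of 19 H2A and 4 of 5 H1 transcripts. Rescaling each library to the same 75th percentile of its transcripts above 0, of which the NAc libraries of set I had fewer, moved the median of all transcripts in the NAc by 0.12. With that scaling 17.6% of all transcripts were called there, and 23 members were lower and 3 higher, Hist1h2bp, Hist1h2be and Hist2h2be by 1 transcript each. The factors were 0.746 to 0.824 for NAc saline I libraries and 1.12 to 1.14 for NAc saline II libraries. They moved the members' median from -0.69 to -0.34, 0.51 below that of all transcripts. Low transcripts move less on the log2(FPKM + 1) scale, so the medians of members and of all transcripts did not shift alike. With 3 libraries in place of 4 in either set, the NAc count was 7 to 23 and the PFCx count 16 to 27, and the lowest, 7, was without NAc saline I replicate 1.

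Among the H4 genes, which all encode the same protein, Hist1h4j had the lowest adjusted p in both tissues. Its FPKM in the NAc was 5.66, 5.16, 6.72 and 7.42 in saline I and 1.38, 2.02, 2.08 and 1.81 in saline II. In the PFCx it was 4.3, 5.58, 4.23 and 5.31 against 0.683, 1.27, 0.457 and 0.653. The sets did not overlap, and the difference was -1.36 ± 0.12 in NAc and -1.74 ± 0.15 in PFCx (log2(FPKM + 1), SE, limma adjusted p = 0.0067 and 0.0029). The more abundant Hist1h4c was at 54.7, 40.5, 49.2 and 64.8 FPKM in NAc saline I and 23.5, 18.3, 18.9 and 25.8 in NAc saline II. Its PFCx values were 33.2, 65.5, 47 and 47.6 in saline I and 11.6, 14.9, 9.63 and 8.45 in saline II, so that the lowest of saline I was above the highest of saline II in both tissues. Hist1h4d, the most abundant, was called in the PFCx and not in the NAc. It had 71.1, 61, 59.9 and 79 FPKM in NAc saline I and 40.6, 40.9, 48.6 and 58.6 in saline II (difference -0.52, limma adjusted p = 0.135), and 56.3, 74.1, 64 and 69.2 against 24.3, 26.2, 21.2 and 16.4 in the PFCx (difference -1.55, limma adjusted p = 0.00498). The set difference of Hist1h4d was 1.03 less negative in the NAc than in the PFCx, which missed the threshold (limma adjusted p = 0.0539). In both tissues its libraries did not overlap between the sets.

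Hist1h4a (-1.35) and Hist1h4n (-1.19) were also among the 8 called with the lowest adjusted p in the NAc, and Hist1h4k (-1.76) and Hist1h4m (-2.10) in the PFCx. Of the H3 genes, which encode the canonical H3 proteins, Hist1h3d had the lowest adjusted p of all members in the PFCx. Its FPKM there was 3.73, 5.68, 4.94 and 3.78 in saline I and 0.896, 0.751, 0.854 and 0.814 in saline II, a difference of -1.58 ± 0.12 (SE, limma adjusted p = 0.00159). The saline II libraries lay close together and far under the lowest of saline I. Hist1h3e (-1.12) and Hist1h3c (-0.65) fell with it in the PFCx, and Hist1h3i (-0.84) in the NAc. For Hist1h4j, Hist1h4c and Hist1h3d the exact permutation test gave p = 0.0286 in both tissues (two-sided, the smallest that 4 against 4 allows), which is the same libraries tested again and no independent evidence.

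Of the H2A and H2B genes, whose proteins pair as dimers in the nucleosome, Hist1h2ao (-0.84), Hist1h2ag (-0.92), Hist1h2br (-0.70) and Hist1h2bn (-1.06) were among the 8 in the NAc. Hist1h2ag had 2.19, 2.14, 2.13 and 2.49 FPKM in NAc saline I and 0.869, 0.514, 0.69 and 0.779 in saline II. In the PFCx its values were 0.924, 0.693, 0.931 and 0.477 against 0.389, 0.434, 0.374 and 0.456, much closer to each other. This was the 1 member of 72 whose set difference was itself called different between the tissues, by -0.62 (limma adjusted p = 0.0471), where 0.541% of all transcripts were called. It shared 76.2% of its windows with other members. Of the H1 genes, Hist1h1a fell in the PFCx by 1.20 on the log2 scale (limma adjusted p = 0.00541).

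Some members showed little difference between the saline sets. Hist2h2be, which encodes the H2B variant known from olfactory neurons, was at 0.88, 0.946, 0.926 and 0.995 FPKM in NAc saline I and 0.891, 0.869, 0.983 and 1.01 in saline II. In the PFCx it was at 0.741, 0.819, 0.661 and 0.873 against 0.731, 0.606, 0.741 and 1.07, so that the sets overlapped throughout. Hist1h2ak differed by 0.14 in NAc and 0.04 in PFCx. The long transcript Hist3h2a differed by 0.01 ± 0.14 (SE) in NAc and by -0.38 ± 0.15 (SE) in PFCx (limma adjusted p = 0.978 and 0.272). These members were named after their values had been seen.

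**Figure D2:**
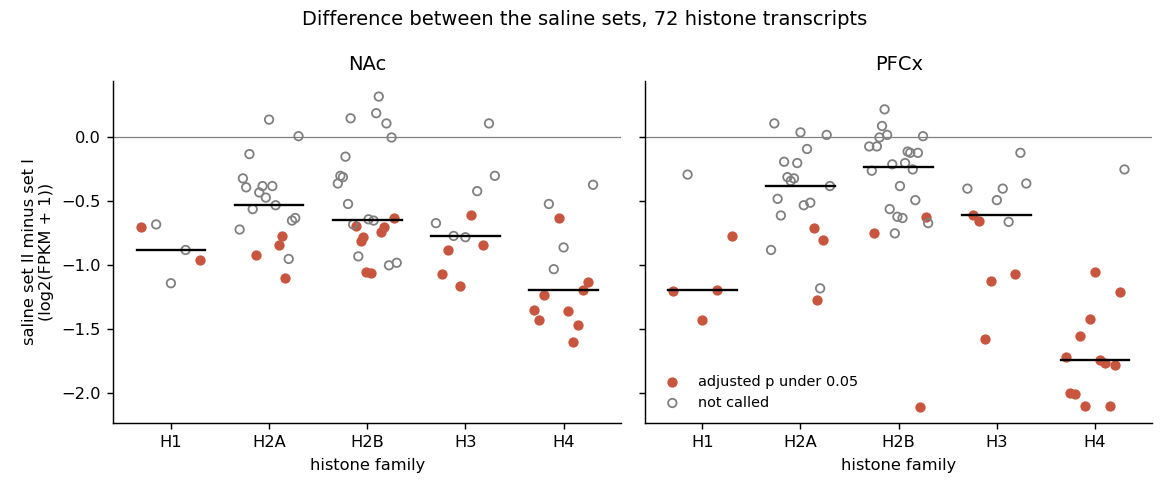
Difference of saline II minus saline I on the log2(FPKM + 1) scale for each of the 72 histone transcripts, by family, in the NAc (left) and the PFCx (right). Filled points passed the test at an adjusted p under 0.05, open points did not, and bars are family medians. All filled points lie below 0, and H4 is the lowest family in both tissues, with 9 and 12 of 13 transcripts called.

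Where the model ended at the stem-loop, 15 of 29 tested transcripts were called in NAc and 14 in PFCx. Where it ran on, 5 and 7 of 14 were called, and where it held no stem-loop, 8 and 6 of 29. The grouping follows the annotated models, so a missing stem-loop need not mean another kind of 3′ end. The medians of these groups were -0.78, -0.71 and -0.56 in NAc and -0.71, -0.56 and -0.38 in PFCx, and no test between them was made. Histone transcripts are short, have 1 exon as a rule and are rich in G and C, so transcripts of the same make were looked at beside them. Of the other transcripts with a mean of at least 1 FPKM and 1 exon, 3.53% were called lower and 3.58% higher in NAc. In PFCx 12.4% were called lower and 8.03% higher, and the medians were 0.01 in NAc and -0.05 in PFCx. With 1 exon and a GC content of 50 to 55%, 6.46% were called lower and 5.45% higher in NAc (median -0.15). In PFCx these shares were 23.6% and 4.06% (median -0.33). At a GC content of 55 to 60% they were 8% and 4.53% in NAc and 18.9% and 4% in PFCx. At 60% or more they were 10% and 0.833% in NAc and 12.5% and 1.67% in PFCx. Among other transcripts of 300 to 500 bases the medians were -0.16 and -0.21. The 57 members at that level had 47.4% called lower and 0% higher in each tissue and medians of -0.78 and -0.66. The part of exon number, length and GC content in the set difference was not tested.

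Other lists of the pathway showed the same division in part. Replication-independent histones can be made outside S phase, as a rule from genes with introns and with poly(A) tails, although H2afx of this list has no intron and also gives mRNA that ends in the stem-loop. Of these 11 genes, with FPKM summed by gene, 5 fell and 1 (Cenpa, the centromeric H3) rose in NAc saline II, where 4.37% of all genes were called lower and 12.9% higher. H2afz, which encodes H2A.Z, differed by -0.90 in NAc and -0.85 in PFCx, and H2afj by -0.80 and -0.65. Both were called in each tissue, and no other gene of the list was called in the PFCx, where 3.57% of all genes were called lower. Of 9 tested RNAs made without a poly(A) tail, 4 fell and 2 (Rny1 and Vaultrc5) rose in the NAc, and 6 fell and 0 rose in the PFCx. Rpph1, the RNA of RNase P, fell by 2.49 and 2.41 on the log2 scale, and Rn7sk, which holds P-TEFb inactive, by 1.38 and 2.00. Rmrp, the RNA of RNase MRP, fell by 0.88 in NAc and 2.04 in PFCx. Among 14 histone mRNA 3′ end factors 0 were called in NAc and 1 in PFCx, Lsm10 of the U7 snRNP, at -0.58. Among 11 histone chaperones 0 were called in either tissue. Of 24 dividing-cell genes 4 rose and 0 fell in NAc saline II (Mki67, Bub1, Ccna2 and Aurkb), a share near the 12.9% of all genes called higher, and 1 (Tyms) rose and 0 fell in the PFCx, where 3% of all genes were called higher. All 6 oligodendrocyte markers fell in NAc saline II, with a median of -0.33, and 0 of 6 were called in the PFCx. Of cortical excitatory neurons 1 of 7 markers, Slc17a7, a vesicular glutamate transporter, fell in the NAc, by 0.99 on the log2 scale, and the summed FPKM of the 7 was 51.5 to 70.1 in NAc saline I and 25.6 to 46.6 in saline II, with no overlap. Of medium spiny neurons 1 of 9, Tac1, fell there by 0.36. In the PFCx 0 of either list were called. Of the remaining markers, 2 of 6 oligodendrocyte precursor, 2 of 5 microglia, 1 of 5 neuroblast, 1 of 4 astrocyte, 0 of 4 endothelium and 0 of 4 choroid plexus genes fell in the NAc, and 0 of each were called in the PFCx. The part of these cell types in the histone difference was not tested.

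Between the tissues, in saline, the histones were higher in the NAc. With both sets together, 25 of 72 transcripts rose in the NAc against the PFCx and 0 fell, where 13.7% of all transcripts were called, 4.27% higher and 9.46% lower. The members' median difference was 0.43 against -0.07 for all transcripts, and 66 of 72 had a positive value. By family, 7 of 11 H3, 10 of 24 H2B, 6 of 19 H2A, 2 of 5 H1 and 0 of 13 H4 transcripts were called. Rescaled to the 75th percentile of transcripts above 0, 21 members were higher and 0 lower (median 0.31), where 13.4% of all transcripts were called. With the 75th percentile of transcripts tested, 27 were higher and 0 lower (median 0.46), where 12.4% were called. The sum over members was 1.29-fold higher in the NAc within saline I and 1.76-fold within saline II. In saline I the sums overlapped between the tissues, at 478 to 613 in NAc and 366 to 494 in PFCx. In saline II they did not, at 266 to 325 and 124 to 195. All NAc saline II sums lay below all PFCx saline I sums. Within saline I alone 23 transcripts were called higher and 0 lower, where 7.1% of all transcripts were called, 2.16% higher and 4.94% lower. In that set the NAc libraries also had fewer transcripts above 0 than the PFCx libraries, which cannot be told apart from the tissue. Within saline II alone 24 were called higher and 0 lower, where 9.85% were called, 3.35% higher and 6.5% lower. There were 11 called within both. With the saline set as a term of the fit the count was 39. The share of all transcripts called in that fit is not given here, so 39 is not read against 25. Without that term, leaving out NAc saline I replicate 1, 2, 3 or 4 gave 16, 15, 16 and 16. Leaving out PFCx saline II replicate 3 gave 15. The H4 family was 1.12-fold higher in the NAc within saline I, with 0 of 13 called, and 2.03-fold within saline II, with 6 of 13 called, and whether these differ was not tested by family.

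Hist1h2ak had the lowest adjusted p. In the NAc it was at 2.17, 2.82, 3.28 and 1.9 FPKM in saline I and 3.06, 2.52, 3.95 and 2.15 in saline II. In the PFCx it was at 1.27, 0.763, 0.517 and 1.57 in saline I and 1.49, 1.13, 0.896 and 0.741 in saline II, so that all 8 NAc libraries lay above all 8 PFCx libraries. The difference was 0.87 ± 0.13 (SE, limma adjusted p = 0.000159, exact permutation p = 0.000155, two-sided, the smallest for 8 against 8). Hist1h3c had 3.59, 3.89, 3.45 and 3.21 FPKM in NAc saline I against 1.22, 0.929, 1.01 and 0.939 in PFCx saline I, and 0.922, 1.92, 1.51 and 1.58 against 0.305, 0.263, 0.317 and 0.276 in saline II. Its tissues were apart within each set and overlapped across the sets, as NAc saline II replicate 1 was below PFCx saline I replicates 1, 2, 3 and 4. The difference was 1.05 ± 0.21 (SE, limma adjusted p = 0.00231).

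The other H2A and H2B transcripts with the lowest adjusted p were Hist1h2bn (1.20), Hist1h2bm (0.84), Hist1h2bp (0.83), Hist1h2bc (0.75), Hist1h2ae (0.73) and a transcript of Hist1h2be (0.31). The linker histones were unlike each other. Hist1h1d was higher in the NAc by 1.22 (limma adjusted p = 0.00851), at 13.6 to 17.9 FPKM against 5.57 to 8.44 in saline I and at 6.8 to 11.5 against 1.88 to 3.36 in saline II. Hist1h1e, the most abundant of them, differed by -0.12 (limma adjusted p = 0.781), at 17.9 to 24.9 against 18.6 to 24 in saline I and 8 to 12.3 against 9.4 to 12.8 in saline II.

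**Figure D3:**
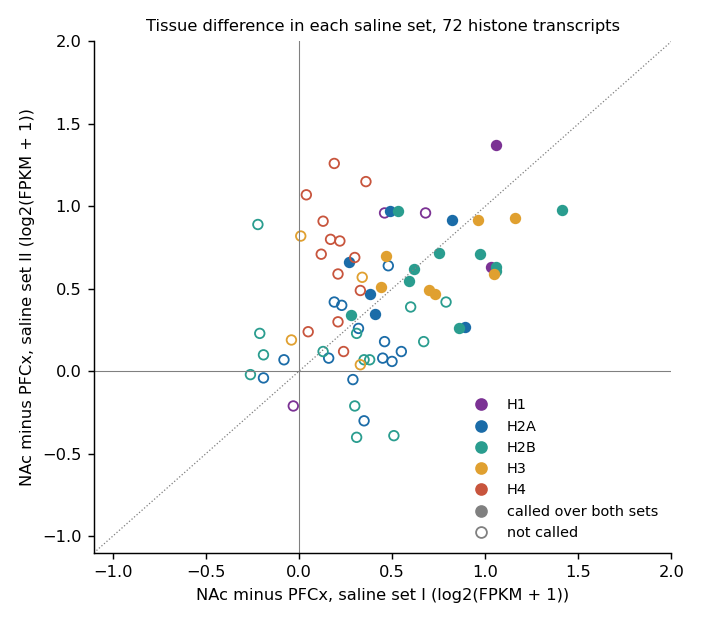
NAc minus PFCx on the log2(FPKM + 1) scale for each of the 72 histone transcripts, within saline I (horizontal) and within saline II (vertical); colours are families, filled points were called with both sets together, and the dotted line marks equal differences. Most points lie to the upper right, and most H4 points sit above the line, with a family median of 0.21 within saline I and 0.71 within saline II.

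With FPKM summed by gene, 33.9% of all genes were called between the tissues, 7.16% higher and 26.8% lower in the NAc, and the other lists are read against that. Of 11 replication-independent histones 2 rose in the NAc (H3f3a by 0.81, H2afx by 0.31) and 1 fell (Cenpa). Of 14 3′ end factors Cpsf3 (0.58), the endonuclease that cuts histone pre-mRNA, and Srrt rose, and 4 fell, among them Lsm11 (-0.74) of the U7 snRNP and Slbp (-0.59), the stem-loop binding protein. Of 11 chaperones Hira (-0.45) and Chaf1b (-0.44) fell, and of 9 RNAs without a poly(A) tail Rny1 and Vaultrc5 fell. Of 24 dividing-cell genes 4 rose and 6 fell, with Ccne1 (-0.55) and E2f1 (-0.62) among those that fell and Rrm2 (0.31) and Mcm5 (0.22) among those that rose. Markers of other cells moved with the tissue: 6 of 6 oligodendrocyte markers rose in the NAc (median 1.83), as did 4 of 6 for oligodendrocyte precursors, 4 of 5 for neuroblasts, 2 of 5 for microglia and 2 of 4 for choroid plexus. The genes that fell were 1 of oligodendrocyte precursors, 1 of neuroblasts, 1 of 4 of endothelium, 2 of 4 of astrocytes and 2 of choroid plexus. Their part in the histone difference was not tested.

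For the drugs, the question was which treatments changed the histone transcripts in each tissue. With all 8 saline libraries of a tissue as control, 51 of 72 transcripts were called by the moderated F test over the 6 drugs in the NAc, where 11.6% of all transcripts were called, and 8 of 72 in the PFCx, where 1.12% were. At an adjusted p under 0.0001 the counts were 0 of 72 in both tissues, where 0.12% and 0.0336% of all transcripts were called (0.127% and 0.029% with saline of the own sample set, also with 0 of 72 members). The 8 with the lowest p in the NAc were Hist1h3d, Hist1h4a, Hist1h4i, Hist1h4j, Hist1h2al, Hist1h1d, Hist1h4c and Hist1h3f. The 8 in the PFCx were Hist1h4i, the pseudogene Hist3h2bb-ps, Hist1h4a, Hist1h4k, Hist2h4, Hist1h4b, Hist1h1e and Hist1h4j. No single drug against saline was called for any member in either tissue by limma. In the NAc 0.188% of all transcripts were called for haloperidol, 0.16% for risperidone, 0.051% for methamphetamine, 0.504% for mianserin, 0.0579% for venlafaxine and 0.2% for ketamine. In the PFCx these shares were 0.0232%, 0.158%, 0.108%, 0.351%, 0.00116% and 0.00347%. At an unadjusted p under 0.05 there were members for every drug, from 4 of 72 to 48 of 72. The 4 were for mianserin and for ketamine in the PFCx, where 7.72% and 6.8% of all transcripts had such a p. The 48 were for venlafaxine in the NAc, where 12.2% of all transcripts had it. The pairs with the lowest p were venlafaxine in the NAc for Hist1h3d (-0.77) and Hist1h4j (-1.12), and in the PFCx risperidone for Hist1h1c (1.11) and mianserin for Hist3h2a (0.48), with adjusted p of 0.083, 0.0873, 0.125 and 0.134.

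The pooled saline control mixes the sample sets. The members' median difference in the NAc was positive for haloperidol (0.32), risperidone (0.35) and methamphetamine (0.16), and negative for mianserin (-0.26), venlafaxine (-0.42) and ketamine (-0.35). In the PFCx it was 0.16, 0.36 and 0.18 for the former and -0.08, -0.27 and -0.15 for the latter. With only the saline of a drug's own sample set as control these medians were 0, 0.06 and -0.16 and then 0.04, -0.11 and -0.01 in the NAc, so that methamphetamine and mianserin changed sign. In the PFCx they were -0.09, 0.07 and -0.06 and then 0.18, 0.05 and 0.11, so that all but risperidone changed sign. The 6 comparisons of a tissue share their saline libraries. With this own-set control, the F test called 3 of 72 transcripts in the NAc, where 0.645% of all transcripts were called, and 2 of 72 in the PFCx, where 0.484% were. All were linker histones: Hist1h1e (limma adjusted p = 0.00129), Hist1h1c (0.0117) and Hist1h1d (0.0119) in the NAc, and Hist1h1e (0.00576) and Hist1h1c (0.0119) in the PFCx. The difference of drug effects between the tissues was called for 0 of 72 members with either control, by limma, where 1.59% of all transcripts were called with pooled saline and 0.272% with the own set. There 6 of 72 had an unadjusted p under 0.05 with pooled saline, where 14.3% of all transcripts did. The lowest were for Hist1h2bp (limma adjusted p = 0.0947) and Hist1h2bg (0.211). With the own set 6 of 72 had such a p, where 6.97% of all transcripts did.

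Mianserin, an antidepressant that blocks serotonin and adrenergic receptors, had more members called than the other drugs. Against saline II it raised 7 of 72 in the PFCx and lowered 0, where 0.916% of all transcripts were called and 0.247% were called higher, and raised 1 of 72 in the NAc, where 0.162% were called and 0.0799% were called higher. Hist1h1e was the member called in both. Its FPKM in the NAc was 14.9, 19.3, 18.5 and 21.9 after mianserin and 8.48, 8, 11.4 and 12.3 in saline II. In the PFCx it was 24.5, 21.4, 21.5 and 30.4 against 12.8, 12.1, 9.4 and 12.3. Every mianserin library was above every saline II library, and the difference was 0.84 ± 0.15 in NAc and 1.00 ± 0.17 in PFCx (SE, limma adjusted p = 0.00943 and 0.0027). Against the other control the picture was not the same, since saline I had 17.9, 17.9, 20.7 and 24.9 FPKM in NAc and 20.6, 24, 19.3 and 18.6 in PFCx, within or near the range of the mianserin libraries.

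In the PFCx Hist1h1d was at 10, 7.32, 9.12 and 4.64 FPKM after mianserin and 2.55, 3.36, 2.41 and 1.88 in saline II, a difference of 1.28 ± 0.22 (SE, limma adjusted p = 0.00308). Hist1h1c was at 8.41, 4.17, 6.03 and 6.27 against 2.99, 3.57, 2.04 and 1.98 (0.98 ± 0.17, limma adjusted p = 0.00349). Hist1h1a was at 4.8, 3.06, 2.82 and 3.72 against 1.42, 1.72, 1.09 and 1.41 (0.92 ± 0.17, limma adjusted p = 0.00589). None of these overlapped between the groups. Hist1h1b, the fifth H1 gene tested, differed by -0.10 ± 0.17 (SE, limma adjusted p = 0.927). The other 3 called were the Hist3 neighbours Hist3h2a and Hist3h2ba, and Hist1h4d. Their differences were 0.68, 0.68 and 0.83 (limma adjusted p = 0.00928, 0.019 and 0.0498). With single libraries left out, the Hist1h4d call was lost in 27 of 32 fits, that of Hist3h2ba in 4 and that of Hist3h2a in 2. The PFCx calls of Hist1h1e, Hist1h1d, Hist1h1c and Hist1h1a were lost in 0. In the NAc Hist1h1c and Hist1h1d each differed by 0.74 and overlapped between the groups (limma adjusted p = 0.142 and 0.271). The H1 sum was 48.3, 36.8, 39.7 and 45.7 after mianserin against 20.9, 21.2, 15.3 and 18.4 in PFCx saline II, 2.25-fold higher. In the NAc it was 38.6, 52.7, 48.3 and 60.7 against 27, 23.1, 30.6 and 38.5, 1.68-fold higher, with the lowest after mianserin at the level of the highest in saline II. In saline I the H1 sum was 38.4, 50.1, 39.1 and 40.5 in PFCx and 59.2, 53.2, 58.5 and 70.4 in NAc. The rise after mianserin was thus seen against saline II and not against saline I. For the other families mianserin sums in the PFCx, against saline II, were at 1.68-fold for H4, 1.59-fold for H3, 1.42-fold for H2A and 1.27-fold for H2B. In the NAc they were at 1.02-fold to 1.19-fold. Against the same PFCx saline II, ketamine was at 1.73-fold for H4, 1.48-fold for H3, 1.27-fold for H2A and 1.07-fold for H2B. Venlafaxine was at 1.38-fold for H4, 1.05-fold for H3, 1.11-fold for H2A and 0.974-fold for H2B there. The H1 genes were picked out after their values had been seen.

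The NAc call for Hist1h1e was lost without mianserin replicate 4 or without saline II replicate 1 or 2, and leaving out single libraries gave 4 to 10 members called in the PFCx, with 4 without mianserin replicate 1 or saline II replicate 3. PFCx saline II had the lowest histone sums of all groups, and its replicate 4, which had the most RNA of medium spiny neuron genes, was the lowest library of all at 124. With FPKM summed by gene, 2.01% of all genes were called under mianserin in the PFCx, 0.54% higher and 1.47% lower. Of the lists, 1 of 24 dividing-cell genes (Mcm4, -0.22) and 1 of 11 chaperones (Nasp, -0.48) fell, 1 of 11 replication-independent histones (H3f3b, 0.44) rose, and 0 of 6 oligodendrocyte markers were called. H3f3b, which encodes H3.3, also rose in the NAc, by 0.42, where 0.273% of all genes were called.

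**Figure D4:**
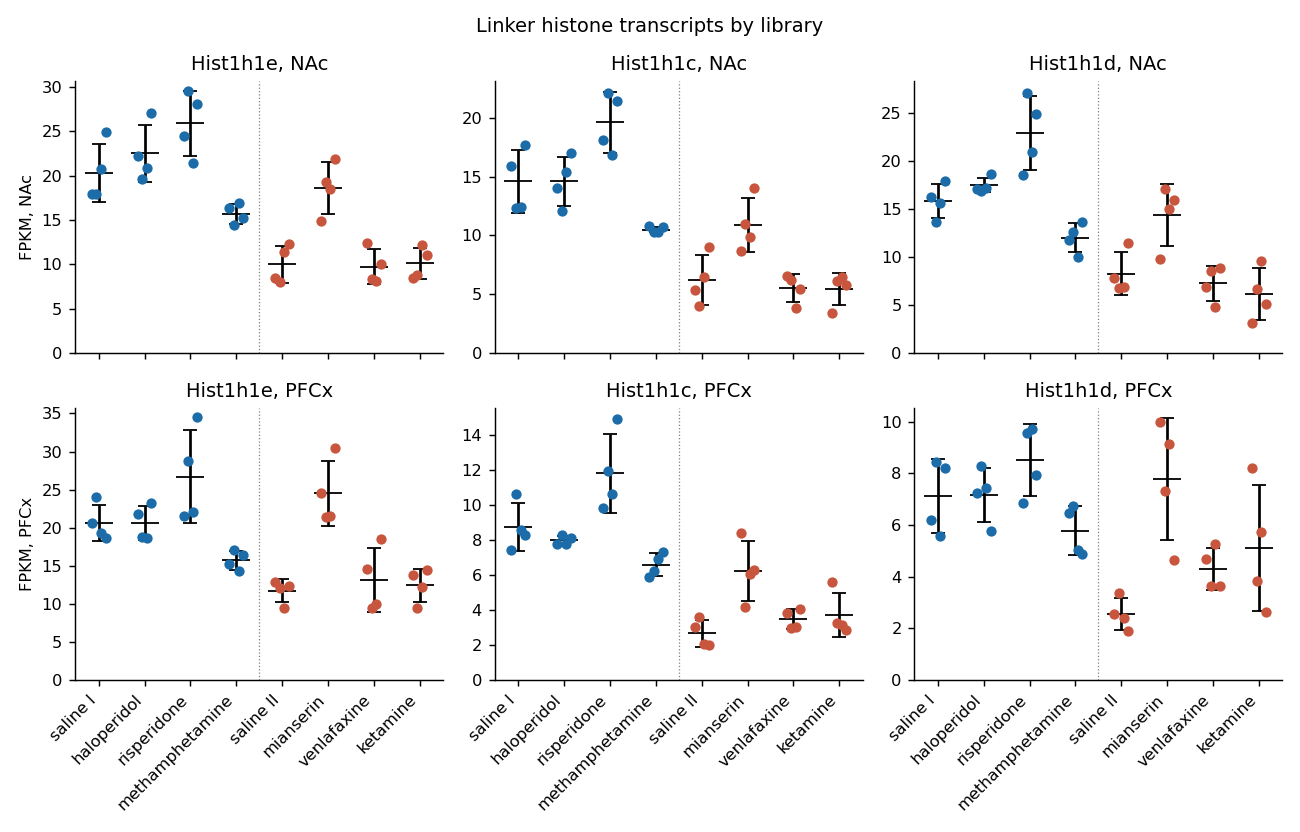
FPKM of the linker histone transcripts Hist1h1e, Hist1h1c and Hist1h1d in each library, NAc above and PFCx below. Points are libraries, bars are means and error bars are SD (n = 4); sample set I is blue, left of the dotted line, and sample set II is red. Mianserin libraries lie above the saline II libraries for Hist1h1e in both tissues, and near those of set I.

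For the other drugs no H1 value passed the test. Risperidone, which like mianserin blocks 5-HT2A receptors, gave an H1 sum 1.28-fold that of saline I in NAc and 1.24-fold in PFCx, with Hist1h1d at 0.50 (limma adjusted p = 0.692) and Hist1h1c at 0.41 (0.736) in the NAc. Haloperidol, mainly a D2 receptor blocker, was at 1.05-fold and 0.953-fold. Methamphetamine, which releases monoamines, was at 0.731-fold and 0.766-fold, with all 5 H1 transcripts negative in the NAc (-0.61 to -0.34). In set II, venlafaxine, a monoamine reuptake inhibitor, was at 0.922-fold and 1.27-fold, and ketamine, an NMDA receptor blocker, at 0.889-fold and 1.27-fold. Ketamine in the PFCx had 1 member called, Hist1h4j, which rose by 0.57 (limma adjusted p = 0.0397), where 0.512% of all transcripts were called and 0.0938% were called higher. For haloperidol, risperidone, methamphetamine and venlafaxine in both tissues and ketamine in the NAc, 0 of 72 were called by limma with the own set. The shares of all transcripts called there were 0.0811%, 0.0695%, 0.0301%, 0.00463% and 0.339% in the NAc, in the order haloperidol, risperidone, methamphetamine, venlafaxine and ketamine, and 0%, 0.0394%, 0.0544% and 0.185% in the PFCx without ketamine. At an unadjusted p under 0.05 there were 0 (ketamine in the NAc) to 14 (methamphetamine in the NAc) members.

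The genes outside the family that followed the summed histone FPKM most closely over the 64 libraries, among 15471 genes with a mean of at least 1 FPKM, were Gm10132 (Spearman rho 0.946), Actb, which encodes beta-actin (0.943), and Fbll1, a fibrillarin-like gene (0.939). The libraries share their sample set, tissue and depth, and the values are a description. Mean FPKM of Gm10132 was 13.6 in NAc saline I and 4.9 in saline II, and 11.6 and 2.38 in the PFCx. For Actb these means were 408, 254, 297 and 181 in the same order, so that all 3 genes, like the histones, were higher in saline I.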

How the data were processed

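Ribosomal RNA-depleted RNA was sequenced on Ion PI chips with single-end reads, and the authors aligned the reads with TopHat2 (2.0.1) followed by Tmap and quantified annotated transcripts of GRCm38 with Cufflinks (2.2.1). The values deposited by the authors are FPKM per transcript and library. They are not counts, and per-library read totals were not used here. Coverage values deposited by the authors served only to estimate depth. FPKM was used as deposited, on the log2(FPKM + 1) scale, which understates changes of low transcripts.

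All 112714 transcripts were read, those with a mean of at least 0.1 FPKM in either tissue were kept, and limma (3.58.1, in R 4.3.3) was fitted to the 86331 kept, with adjusted p-values over all of them and calls at an adjusted p under 0.05. The fits had no block or batch term: 8 against 8 saline libraries between tissues, 4 against 4 between saline sets, and all 32 libraries of a tissue for drugs (pooled saline as main control, saline of the same sample set as alternative). The 4 against 4 and 8 against 8 designs also had exact permutation tests for the members named. Sums over families are descriptions. Other lists were tested on FPKM summed by gene. Stem-loops and exon properties were read from GENCODE vM21 for GRCm38. The tests were checked on simulated data.

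The members, the gene lists and the drug comparisons were chosen with earlier results of these data known. The sample sets of the drug groups were read from the tables, not from labels. Named were the 10 genes with the highest mean, the up to 8 called members with the lowest adjusted p in each comparison (where none was called, the 2 with the lowest p), the 3 outside genes most alike, and up to 4 genes of a list. Genes named beyond this are said to be so, or are those a count of 5 or fewer refers to. Alternatives tried were another pseudocount, other filters, sums by gene, rescaling, a variance trend, a replicate block, other saline controls and leaving out each library.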

Additional observations from a re-analysis of the deposited data

Results flagged for a closer look

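The set difference of Hist1h2ag was unlike in the tissues by the test of that difference (limma, adjusted p = 0.0471; -0.92 in NAc and -0.31 in PFCx), with saline II lower in 4 of 4 libraries against saline I in both.

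Single libraries stood apart from the other 3 of their group, by a gap wider than Dixon's 95% limit for 4 samples, in 10 of 272 groups examined, and chance would give about 1 in 20 groups. For the H2B sum these were NAc saline I replicate 2 (107 FPKM, the others at 115), PFCx saline I replicate 3 (61, the others 71.7 to 72.8) and PFCx saline II replicate 4 (37.1, the others 50 to 50.7). For the H3 sum it was PFCx saline I replicate 2 (24.1, the others 19.9 to 20.4). Hist1h4j was high in PFCx methamphetamine replicate 1 (4.39, the others 3.8 to 3.88) and low in PFCx risperidone replicate 1 (4.61, the others 5.7 to 5.78). Hist1h3d was low in NAc mianserin replicate 4 (1.6, the others 1.93 to 1.98), and Hist1h1c was high in PFCx ketamine replicate 1 (5.56, the others 2.83 to 3.24). Hist3h2ba was low in PFCx haloperidol replicate 2 (14.7, the others 18.9 to 19.3) and Hist3h2a in NAc saline II replicate 1 (8.25, the others 9.8 to 10.1). PFCx saline II replicate 4 was also the library with the most RNA of medium spiny neuron genes in its group.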

How the results depend on the processing

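Of the counts and of the genes named by rule, none recomputed here turned its direction. The exceptions lie outside these: the median over members changed sign with the own saline set for methamphetamine and mianserin in the NAc and for all drugs but risperidone in the PFCx, and 3 H2B transcripts were called higher in NAc saline II after 1 rescaling, as given above. The tissue count of 25 became 39 with the saline set as a covariate, where the share of all transcripts is not given here. With single libraries left out it was 15 to 28, lowest without NAc saline I replicate 2 or PFCx saline II replicate 3. The set count of 28 in the NAc became 50 with FPKM summed by gene, where 17.2% of all genes were called against 1.15% of transcripts. With single libraries left out it was 7 to 23. It was under 19 without NAc saline I replicates 1, 2, 3 or 4 or saline II replicates 1, 2 or 3. The 27 in the PFCx became 16 to 27, lowest without PFCx saline I replicate 3 or saline II replicate 3 (17). The F count of 51 in the NAc became 3 with the own saline set, and 44 to 53 with single libraries left out. The 8 in the PFCx became 17 at a mean of at least 1 FPKM. By gene the count was 18, where 3.34% of all genes were called against 1.12% of transcripts. It was 34 with saline I and 40 with saline II as only control, and 2 with the own set. With single libraries left out it was 6 to 16. The highest were without PFCx saline I replicate 4 (16) or 2 (15) and PFCx saline II replicate 4 (13). Member and drug pairs, 0 in the NAc, became 1 with a pseudocount of 0.1, without a filter, with a variance trend and with the own set, 3 with the 75th percentile above 0, 10 by gene, 140 with saline I only, 126 with saline II only, and 0 to 4 with single libraries left out. In the PFCx 0 became 1 with the 75th percentile of transcripts tested, 8 with the own set, 62 with saline I only, 108 with saline II only, and 0 to 2 with single libraries left out. Differences of drug effects between tissues, 0, became 2 with the 75th percentile above 0 and with saline I only, 4 with saline II only, and 0 to 1 with single libraries left out. With the own set, the F count of 3 in the NAc stayed at 3 to 4. The 2 in the PFCx became 4 at a mean of at least 1 FPKM and with either rescaling. They became 5 by gene, where 1.45% of all genes were called, and 2 to 5 with single libraries left out. Mianserin in the NAc, 1, became 0 to 2, and in the PFCx, 7, became 4 to 10. The causes were not tested.

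Under a replicate block the set count was 4 (NAc) or 15 (PFCx), and the F count with the own set in the PFCx was 4. The numbers are not known to pair the libraries. Deviations of same-numbered libraries had a mean correlation of 0.040 over NAc groups, 0.063 over PFCx groups and -0.033 between NAc and PFCx saline, where 0 of 8 were over 0.1, and the block changed no other count by over 1.5 times. Of values for single genes, 339 kept their side of the threshold, 11 gained and 21 lost a call under the alternatives that keep all libraries, and 786, 9 and 37 with a library left out.

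The depth limits what can be said of the 3 genes under 0.1 FPKM, and the paralogs' shared reads limit single genes of the H2A, H2B, H3 and H4 families.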
